A study of Homo sapiens with 9 samples.

Results

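The transcripts described here come from the mitochondrial genome of Raji, an established human cell line derived from a Burkitt lymphoma. They were chosen as all listed genes whose symbol begins with MT-, which gave 37 of the 15436 genes in the table: 13 mRNA genes, 2 rRNA genes and 22 tRNA genes. The study compared cells given the solvent DMSO with cells given hydroxyurea (HU) and cells given thymidine and nocodazole (Thy-Noc), with 3 libraries per group, in what its title calls DNA-replication stress. HU inhibits ribonucleotide reductase, excess thymidine also disturbs the deoxynucleotide supply, and nocodazole depolymerises microtubules and holds cells in mitosis. No dose or time is stated in the labels, and nothing in them names a genetic change in any group. All groups share the line and are labelled by agent, and whether dose or time also differed between them is not known. The labels do not say that replicates were separate cultures, so p-values reflect only how far these samples differ, a difference that can be technical.

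Human mitochondrial DNA is a small circle in which nearly every base belongs to a gene. Both strands are transcribed into long precursors, from which most mRNAs and rRNAs are released by cutting out the tRNAs that lie between them. The enzymes that make these cuts are RNase P at the 5′ end and ELAC2 at the 3′ end of most tRNAs. The 13 mRNAs encode core subunits of respiratory complexes I, III and IV and of ATP synthase, and the rRNAs and tRNAs serve the mitochondrial ribosome that translates them. The mitochondrial genome is copied from the same deoxynucleotides that HU depletes. Libraries were made with a stranded mRNA kit, a kind that captures RNA by its poly(A) tail, and mature tRNAs carry none, so which molecules the counts at tRNA genes came from was not tested.

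In the annotation (GENCODE 29, GRCh38), 14 of the tRNA genes and all mRNA and rRNA genes but MT-ND6 are on the plus strand of chromosome M, and 8 tRNA genes are on the minus strand. The tRNA genes whose values the results turn on are printed 5′ to 3′ as the genes read, with the anticodon in capitals. They were picked after their values were seen. The first 3 lie end to end with no base between them at chrM:12138-12206, chrM:12207-12265 and chrM:12266-12336 on the plus strand, between MT-ND4 and MT-ND5.
MT-TH (tRNA for histidine): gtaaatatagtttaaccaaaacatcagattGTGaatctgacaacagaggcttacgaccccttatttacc
MT-TS2 (tRNA for serine, codons AGU and AGC): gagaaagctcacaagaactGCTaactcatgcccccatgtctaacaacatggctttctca
MT-TL2 (tRNA for leucine, CUN codons): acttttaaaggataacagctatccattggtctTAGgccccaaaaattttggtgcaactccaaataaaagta
The next pair, also on the plus strand, flank MT-ND3 with no base between, at chrM:9991-10058 and chrM:10405-10469.
MT-TG (tRNA for glycine): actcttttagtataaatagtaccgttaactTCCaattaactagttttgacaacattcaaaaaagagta
MT-TR (tRNA for arginine): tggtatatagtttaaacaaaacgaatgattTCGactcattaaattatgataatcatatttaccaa
The last 4 form a cluster on the minus strand between MT-ND2 and MT-CO1, at chrM:5587-5655, chrM:5657-5729, chrM:5761-5826 and chrM:5826-5891. The stretch of 31 bases between MT-TN and MT-TC is known as the origin of light-strand replication.
MT-TA (tRNA for alanine): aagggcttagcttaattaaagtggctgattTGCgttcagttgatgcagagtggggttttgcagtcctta
MT-TN (tRNA for asparagine): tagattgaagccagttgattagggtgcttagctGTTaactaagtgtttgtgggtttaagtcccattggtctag
MT-TC (tRNA for cysteine): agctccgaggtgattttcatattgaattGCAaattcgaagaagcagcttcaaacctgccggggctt
MT-TY (tRNA for tyrosine): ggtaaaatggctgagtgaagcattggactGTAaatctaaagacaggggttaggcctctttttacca

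These genes are shorter than a sequenced fragment usually is, and many touch their neighbours, so adjoining genes can share reads and are not independent of each other. MT-ATP8 and MT-ATP6 share 46 bases at chrM:8527-8572, where the capitals mark the start codon of MT-ATP6 inside the reading frame of MT-ATP8.
MT-ATP8 and MT-ATP6 overlap: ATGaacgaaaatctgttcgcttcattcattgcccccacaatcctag
MT-ND4L and MT-ND4 share 7 bases. Each of these pairs is carried on a single mRNA, so how the counting split their reads bears on both values. The gene of MT-ND1 ends on the 2 bases TA, and those of MT-ND2, MT-CO3, MT-ND3, MT-ND4 and MT-CYB end on a lone T. In such mRNAs the poly(A) tail completes the stop codon. Whether the counting used strand is not stated, so reads of a gene and of the opposite strand at the same place cannot be told apart.

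The libraries held 74940755 to 110485145 counts in all, of which 780069 to 1385997 fell on the 37 genes. All 8 B-cell markers looked up were in the table, the T-cell, erythroid and epithelial markers were not listed, and 2 of 6 myeloid markers summed to 0.840 to 1.06 CPM in DMSO, 1.21 to 3.25 CPM in HU and 0.765 to 0.973 CPM in Thy-Noc. Of 5 stromal markers only COL1A1 was listed, at 1.30 to 3.88 CPM in DMSO, 8.09 to 13.7 CPM in HU and 1.97 to 5.19 CPM in Thy-Noc, and its part in the results was not tested. Of the 37 genes, 33 passed the filter on low values (1 CPM or more in 3 or more libraries) and were tested, and MT-TD, MT-TK, MT-TQ and MT-TW did not. Replicates of a group differed by at least 10-fold for 2565 of the 11346 genes tested (22.6%), or for 1838 (16.2%) once 0.5 CPM was added to each value, and for 0 of these 33 either way. In DMSO, the highest library exceeded the lowest by 1.04 to 1.64-fold across the 33, with a median of 1.21. The median was 1.38 in HU and 1.58 in Thy-Noc. The Thy-Noc libraries kept a single order for the whole genome: replicate 1 was highest and replicate 2 lowest for 33 of 33 genes. In HU, replicate 1 was highest for 28 of 33. In DMSO, replicate 1 was lowest for 26 of 33.

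By length, the mRNAs of complex IV were the most abundant in DMSO. MT-CO2 stood first at 1666 ± 34.5 CPM per kilobase (SD, n = 3), MT-CO1 next at 1496 ± 110.2 and MT-CO3 after it at 1318 ± 133, and the libraries of MT-CO1 and MT-CO3 overlapped. MT-ND4L (1127 ± 64.3 CPM per kilobase) and MT-ATP8 (1085 ± 119) came next and did not differ beyond their spread. MT-ATP6 (805 ± 59.1), MT-RNR2 (789 ± 45.3) and MT-ND4 (779 ± 75.5) overlapped in turn, as did MT-ND3 (643 ± 41.0) and MT-ND2 (573 ± 56.0). MT-ND1 (397 ± 30.2) overlapped MT-CYB (365 ± 25.6), and MT-ND5 (302 ± 22.8) stood apart from its neighbours in the order. MT-RNR1 (227 ± 21.9) and MT-ND6 (225 ± 24.95), the one mRNA of the minus strand, were the lowest and overlapped. The rRNAs of the ribosome are far more abundant than the mRNAs in a cell, and here they held ranks 7 and 14 of the 15 mRNAs and rRNAs. In HU, MT-RNR2 moved to rank 5 and MT-RNR1 to rank 13, but all neighbours in the order overlapped except MT-ATP6 with MT-ND2 and MT-ND5 with MT-ND6. In Thy-Noc all neighbours overlapped. Among tRNA genes in DMSO, the levels by length of MT-TY (271 CPM per kilobase), MT-TN (250.5), MT-TC (244) and MT-TA (227) were near that of MT-RNR1, while MT-TL2 (57.6), MT-TS2 (60.4) and MT-TH (49.3) were lower and MT-TD was lowest (5.77). As tRNA genes are shorter than a usual fragment, these levels by length do not compare directly with those of mRNA and rRNA genes.

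In HU, 26 of the 33 tested genes had a higher level than in DMSO, and the 7 with a negative log2 fold change were 6 plus-strand tRNA genes and MT-ND3. A run of 3 neighbouring tRNA genes, MT-TH, MT-TS2 and MT-TL2, fell, each to below the range of the DMSO libraries. The rRNAs and 4 minus-strand tRNA genes had the largest positive values, with no overlap between HU and DMSO libraries, but none passed the test. In edgeR's quasi-likelihood test, with p adjusted by Benjamini-Hochberg over all 11346 genes, 3 of the 33 were called in either direction, where 3.56% of all genes were. Of these, 0 were called higher (2.0% of all genes were) and 3 lower (1.56% of all genes were). The median log2 fold change over the 33 was 0.43, against 0.018 over all genes tested. Without adjustment, 19 of the 33 had a p under 0.05, and 21.2% of all genes did. HU libraries all exceeded DMSO libraries for 18 of the 33 and all lay below for 6, where 15.5% and 15.3% of all genes did so. In bulk RNA, a change in the number of transcripts per cell and a change in the make-up of the cells cannot be told apart.

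**Figure D1:**
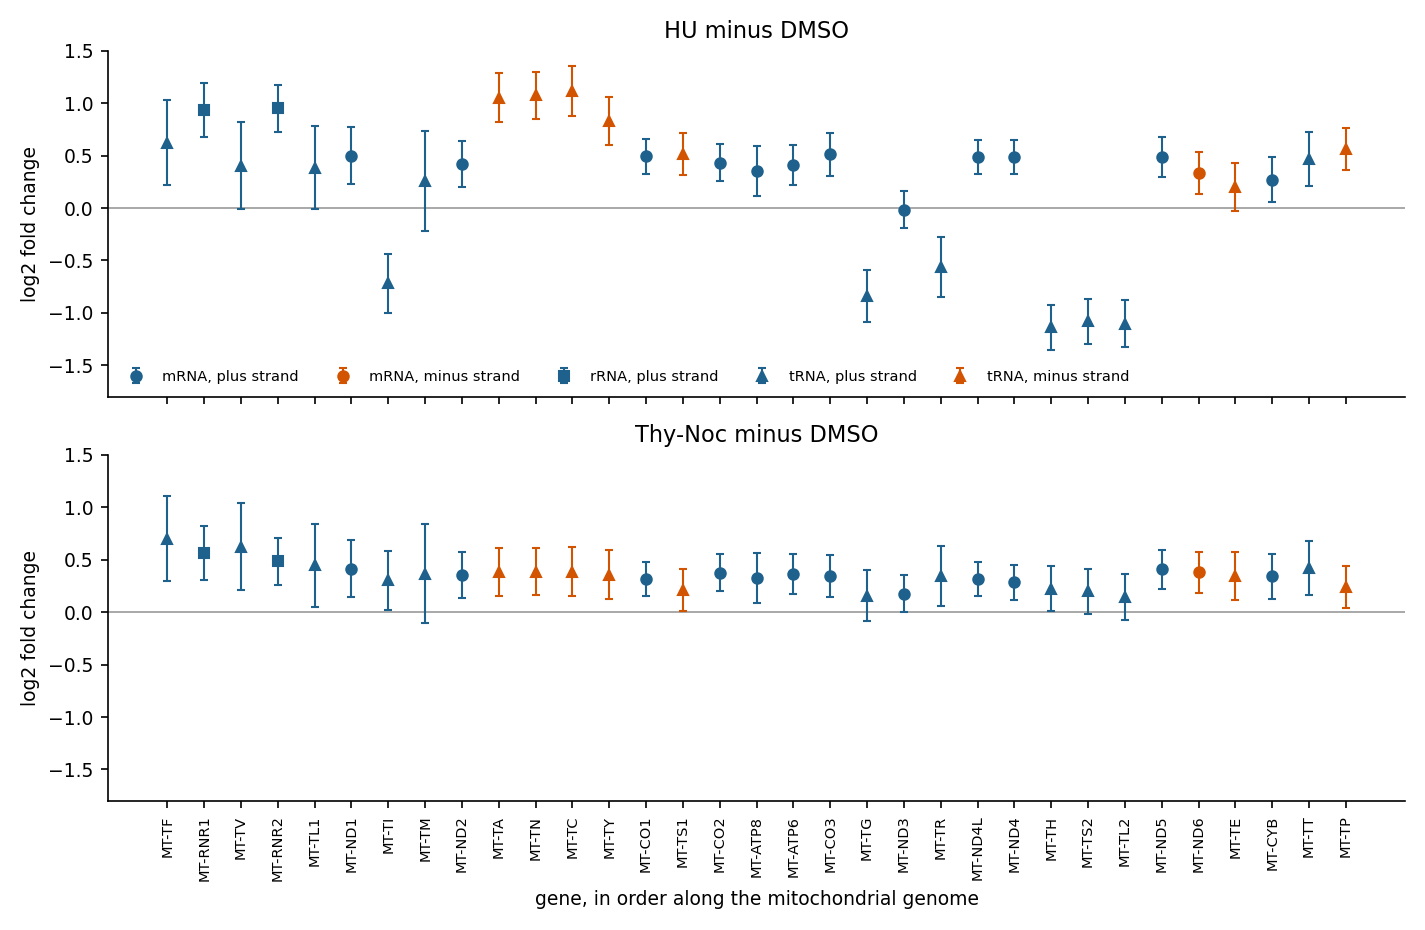
Log2 fold change of each of the 33 tested mitochondrial genes, in genome order, for HU minus DMSO (top) and Thy-Noc minus DMSO (bottom). Points are edgeR estimates, bars are their standard errors, shapes give the gene class and colours the strand. In the top panel MT-TH, MT-TS2 and MT-TL2 lie near -1.1 and MT-TA, MT-TN and MT-TC near 1.1, and in the bottom panel all 33 points lie between 0.15 and 0.70.

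MT-TH stood at 3.02, 3.73 and 3.45 CPM in the DMSO libraries, 1.70, 1.70 and 1.25 CPM in HU and 4.62, 3.49 and 3.81 CPM in Thy-Noc. All 3 HU libraries were below all 6 others. The level in HU was 2.20-fold lower than in DMSO (log2 fold change -1.14, SE 0.22, edgeR adjusted p = 0.0412, lower in 3 of 3 libraries). These levels rest on 131 to 134 counts per HU library and 238 to 400 counts per DMSO library.

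MT-TS2, its neighbour, stood at 3.46, 3.52 and 3.71 CPM in DMSO against 1.86, 1.80 and 1.39 CPM in HU and 4.93, 3.31 and 4.04 CPM in Thy-Noc. Its level in HU was 2.12-fold lower than in DMSO (log2 fold change -1.08, SE 0.22, edgeR adjusted p = 0.0466). MT-TL2 stood at 4.03, 3.99 and 4.26 CPM in DMSO against 1.99, 2.15 and 1.57 CPM in HU and 5.55, 3.60 and 4.44 CPM in Thy-Noc. Again the HU libraries were the lowest 3 of the 9 for both genes. The level of MT-TL2 in HU was 2.15-fold lower than in DMSO (log2 fold change -1.10, SE 0.22, edgeR adjusted p = 0.0470). Because the 3 genes abut and can share reads, they count as one place in the genome more than as 3 separate results.

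The calls of these 3 genes were close to the threshold, while their values stayed negative in all 21 alternatives that tested them. Over those, the log2 fold change was -1.21 to -0.79 for MT-TH, -1.15 to -0.77 for MT-TS2 and -1.20 to -0.82 for MT-TL2. With any 1 library left out, the adjusted p of MT-TH was 0.050045 to 0.136 and its log2 fold change -1.21 to -0.998. MT-TH was called in 0 of those 9 fits, MT-TS2 in 0 and MT-TL2 in 1, the fit without Thy-Noc replicate 1. None of the 3 was called with no filter on low values, in a fit of only the 6 libraries compared, or with the replicate number as a block. DESeq2 called all 3, with 10 other mitochondrial genes, at adjusted p-values of 7.27e-08 for MT-TH, 7.51e-07 for MT-TS2 and 1.45e-06 for MT-TL2. It also called far more genes than edgeR over all 11346, 1079 higher and 1056 lower, where edgeR called 227 and 177. In limma on log2(CPM + 0.5), MT-TH was called and MT-TS2 and MT-TL2 were not. The same held in edgeR with total-count scaling and with robust dispersions. Leaving out the genes with at least 10-fold differences between replicates, a choice made after seeing the data, kept the 3 calls and added MT-RNR2, MT-TA, MT-TN and MT-TC.

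Other plus-strand tRNA genes also had lower values in HU without passing the test. MT-TG, upstream of MT-ND3, stood at 1.42, 2.03 and 2.09 CPM in DMSO against 1.06, 1.23 and 0.810 CPM in HU (log2 fold change -0.84, SE 0.25, edgeR adjusted p = 0.116). MT-TR, downstream of MT-ND3, stood at 2.10, 3.25 and 2.30 CPM in DMSO against 2.10, 1.58 and 1.51 CPM in HU (log2 fold change -0.56, SE 0.29, edgeR adjusted p = 0.322). The libraries did not overlap, though for MT-TR the highest in HU and the lowest in DMSO both round to 2.10 CPM. MT-TI, the tRNA gene for isoleucine downstream of MT-ND1, stood at 0.786, 1.29 and 1.12 CPM in DMSO against 0.759, 0.609 and 0.572 CPM in HU (log2 fold change -0.72, SE 0.29, edgeR adjusted p = 0.205). DESeq2 called MT-TG lower and not the other two.
The 5 other tested plus-strand tRNA genes had positive values in HU: MT-TF (phenylalanine) 0.62, MT-TV (valine) 0.40, MT-TL1 (leucine, UUR codons) 0.38, MT-TM (methionine) 0.26 and MT-TT (threonine) 0.47 on the log2 scale, with adjusted p-values in edgeR of 0.353 to 0.847. So the 11 plus-strand tRNA genes tested did not share a direction, 6 being negative and 5 positive. MT-TF, MT-TV and MT-TL1 adjoin the rRNA genes, and MT-TM lies beside MT-ND2.

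All 7 tested tRNA genes of the minus strand had positive values in HU, with a median log2 fold change of 0.83, and none passed the test. MT-TA stood at 16.2, 13.0 and 17.9 CPM in DMSO against 38.4, 29.2 and 30.1 CPM in HU and 23.3, 15.1 and 22.9 CPM in Thy-Noc (HU minus DMSO log2 fold change 1.05, SE 0.23, edgeR adjusted p = 0.0545). MT-TN stood at 19.0, 15.1 and 20.8 CPM in DMSO against 45.1, 35.0 and 35.4 CPM in HU and 27.8, 17.6 and 26.2 CPM in Thy-Noc (1.07, SE 0.23, edgeR adjusted p = 0.0515). In both genes the lowest HU library exceeded every DMSO and Thy-Noc library. MT-TC stood at 15.9, 14.2 and 18.2 CPM in DMSO against 42.4, 30.0 and 32.4 CPM in HU and 26.2, 15.5 and 21.3 CPM in Thy-Noc (1.12, SE 0.24, edgeR adjusted p = 0.0520). MT-TY stood at 17.1, 17.3 and 19.3 CPM in DMSO against 36.3, 29.3 and 30.0 CPM in HU and 28.6, 15.7 and 24.6 CPM in Thy-Noc (0.83, SE 0.23, edgeR adjusted p = 0.101). MT-TC and MT-TY share 1 base. MT-TA, MT-TN and MT-TC were called higher by DESeq2, by limma, with total-count scaling and with a CPM minimum of 5, where MT-TH, MT-TS2 and MT-TL2 were not among the genes tested.
The other minus-strand tRNA genes lay closer to the mRNAs: MT-TP (proline) had a log2 fold change of 0.56, MT-TS1 (serine, UCN codons) 0.52 and MT-TE (glutamic acid) 0.20, with adjusted p-values in edgeR of 0.172, 0.196 and 0.706. MT-TE adjoins MT-ND6, and its HU and DMSO libraries overlapped, whereas those of MT-TP and MT-TS1 did not.

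The rRNAs, MT-RNR1 of the small and MT-RNR2 of the large ribosomal subunit, had values in HU near 1.9-fold those in DMSO that missed the threshold. MT-RNR1 stood at 193, 225 and 232 CPM in DMSO against 504, 382 and 355 CPM in HU and 438, 219.8 and 304 CPM in Thy-Noc (HU minus DMSO log2 fold change 0.93, SE 0.26, edgeR adjusted p = 0.100015). MT-RNR2 stood at 1171, 1213 and 1309 CPM in DMSO against 2827, 2003 and 2314 CPM in HU and 2126, 1188 and 1852 CPM in Thy-Noc (0.95, SE 0.23, edgeR adjusted p = 0.0670). For both, all HU libraries exceeded all DMSO libraries and overlapped with Thy-Noc. DESeq2 called both higher and limma neither. The ratio of MT-RNR1 to MT-RNR2 counts was 0.176 ± 0.0105 in DMSO, 0.174 ± 0.0189 in HU and 0.185 ± 0.0210 in Thy-Noc (SD, n = 3), so the rRNAs kept their proportion within the spread.

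Of the 13 mRNAs, 12 had positive values in HU and none was called by edgeR, with 6 at an unadjusted p under 0.05, beside 21.2% of all genes. The median log2 fold change was 0.43. DESeq2 called 1, MT-ND4L, and limma none.
Among the complex IV subunits, MT-CO1, which holds the catalytic centre, stood at 2156, 2491 and 2274 CPM in DMSO against 3677, 3276 and 2789 CPM in HU and 3354, 2293 and 2977 CPM in Thy-Noc. MT-CO2, which binds cytochrome c, stood at 1157, 1113 and 1149 CPM in DMSO against 1699, 1600.4 and 1308 CPM in HU and 1714, 1109 and 1619 CPM in Thy-Noc. MT-CO3 stood at 967, 1153 and 979 CPM in DMSO against 1771, 1432 and 1225 CPM in HU and 1594, 997 and 1345 CPM in Thy-Noc. Their HU libraries all exceeded their DMSO libraries, by log2 fold changes of 0.49, 0.43 and 0.51 with adjusted p-values in edgeR of 0.150, 0.219 and 0.206. HU replicate 3 was the lowest HU library for each of the 3.

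The ATP synthase subunits had values of the same size. MT-ATP6 stood at 517, 593 and 534 CPM in DMSO against 843, 742 and 606 CPM in HU and 879, 553 and 685 CPM in Thy-Noc (HU minus DMSO log2 fold change 0.41, edgeR adjusted p = 0.272). MT-ATP8 stood at 212, 253 and 209 CPM in DMSO against 365, 260.1 and 235 CPM in HU and 366, 215 and 266 CPM in Thy-Noc (0.35, edgeR adjusted p = 0.463). MT-ATP6 did not overlap between HU and DMSO and MT-ATP8 did. MT-CYB, the one mitochondrial subunit of complex III, stood at 389.7, 448 and 413 CPM in DMSO against 577, 538 and 394 CPM in HU and 666, 398 and 519 CPM in Thy-Noc (0.27, edgeR adjusted p = 0.542). Its HU and DMSO libraries overlapped.

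Complex I takes 7 subunits from the mitochondrial genome. MT-ND4 stood at 981, 1186 and 1053 CPM in DMSO against 1607, 1672 and 1233 CPM in HU and 1497, 1089 and 1333 CPM in Thy-Noc (HU minus DMSO log2 fold change 0.49, edgeR adjusted p = 0.152). MT-ND4L, on the same mRNA, stood at 317, 355 and 333 CPM in DMSO against 496, 523 and 385 CPM in HU and 477, 341 and 429.5 CPM in Thy-Noc (0.48, edgeR adjusted p = 0.145). The count ratio of MT-ND4L to MT-ND4 stayed at 0.299 to 0.323 in all 9 libraries. MT-ND5, downstream of MT-TL2, stood at 505, 588 and 551 CPM in DMSO against 873, 811 and 622 CPM in HU and 885, 569 and 726 CPM in Thy-Noc (0.49, edgeR adjusted p = 0.198). MT-ND4 and MT-ND5 lie on either side of the 3 tRNA genes that fell, and their HU libraries exceeded their DMSO libraries.
MT-ND1 stood at 349, 405 and 385 CPM in DMSO against 647, 470.3 and 493 CPM in HU and 708, 331 and 479 CPM in Thy-Noc (0.50, edgeR adjusted p = 0.346). MT-ND2 stood at 541, 657 and 593 CPM in DMSO against 921, 729 and 744 CPM in HU and 925, 523 and 847 CPM in Thy-Noc (0.42, edgeR adjusted p = 0.329). These also did not overlap between HU and DMSO. MT-ND6, of the minus strand, stood at 105, 131 and 118 CPM in DMSO against 168, 154 and 123 CPM in HU and 191, 121 and 148 CPM in Thy-Noc (0.33, edgeR adjusted p = 0.389), and its HU and DMSO libraries overlapped.

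MT-ND3 was the mRNA whose value in HU was not positive. Its levels were 211, 239 and 218 CPM in DMSO against 249, 207 and 205 CPM in HU and 285, 187 and 283 CPM in Thy-Noc (HU minus DMSO log2 fold change -0.02, SE 0.18, edgeR adjusted p = 0.978). Its sign changed between alternatives, from -0.11 to 0.08. As a share of all mitochondrial mRNA counts, which no library scaling changes, MT-ND3 made up 2.52%, 2.48% and 2.47% in DMSO against 1.79%, 1.66% and 1.98% in HU, with 2.11%, 2.15% and 2.43% in Thy-Noc. All HU shares were below all Thy-Noc shares, and all of those were below the DMSO shares. Set against its neighbour mRNAs, the count ratio of MT-ND3 to MT-CO3 was 0.216 ± 0.00817 in DMSO, 0.151 ± 0.0148 in HU and 0.192 ± 0.0160 in Thy-Noc (SD, n = 3). The ratio to MT-ND4L was 0.665 ± 0.00916, 0.476 ± 0.0727 and 0.602 ± 0.0549. These shares and ratios were looked at after the values were seen and carry no test.

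**Figure D2:**
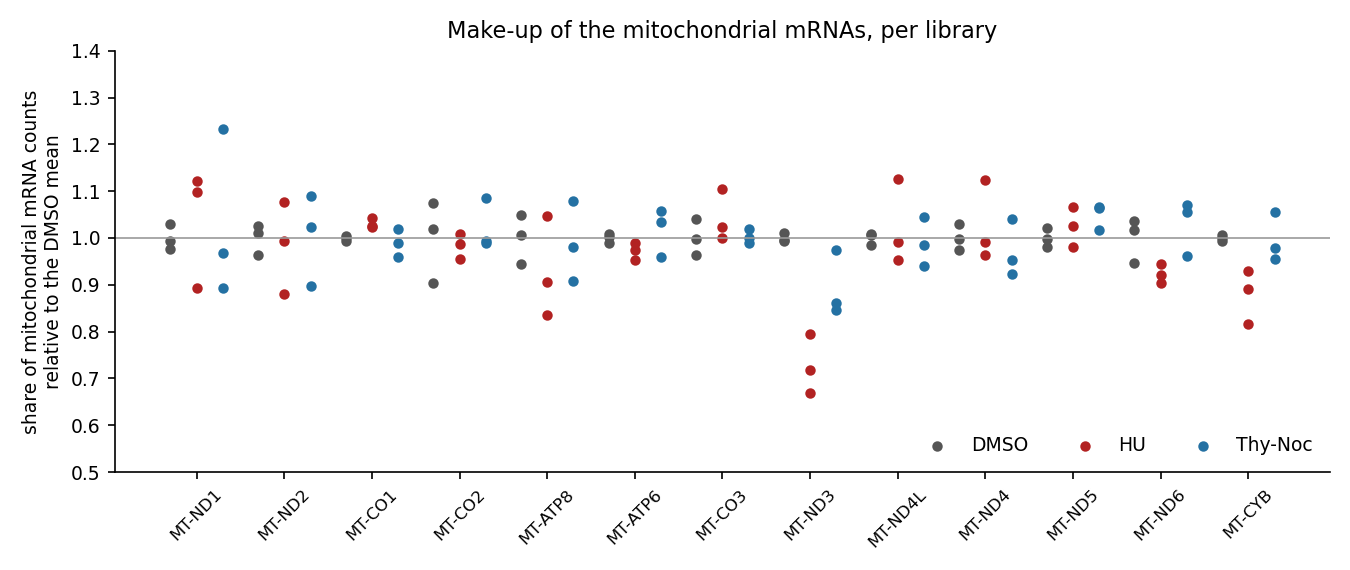
Share of each mRNA in all mitochondrial mRNA counts, divided by its mean share in DMSO, for each of the 9 libraries; the grey line marks the DMSO mean. MT-ND3 lies between 0.67 and 0.80 in HU, while the other mRNAs lie between 0.82 and 1.13 in HU.

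The rest of the mRNA make-up moved little. Complex I mRNAs made up 36.6% ± 0.691 of mitochondrial mRNA counts in DMSO, 36.4% ± 0.603 in HU and 36.4% ± 0.230 in Thy-Noc (SD, n = 3). Complex IV mRNAs made up 50.1% ± 0.721, 51.2% ± 0.338 and 50.2% ± 0.905, and ATP synthase mRNAs 8.64% ± 0.188, 8.29% ± 0.346 and 8.72% ± 0.524. The libraries of HU and DMSO overlapped in each of these 3 shares. MT-CYB made up 4.66% ± 0.0273 in DMSO, 4.10% ± 0.268 in HU and 4.64% ± 0.243 in Thy-Noc, and its HU shares were below all others. MT-ND6, and so the minus strand, made up 1.32% ± 0.0615, 1.22% ± 0.0267 and 1.36% ± 0.0777, and the HU shares were again the lowest. MT-CO1 was the one mRNA whose HU shares (26.6% ± 0.284) all exceeded the DMSO shares (25.8% ± 0.137).

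The 3 classes of gene took different shares of the mitochondrial counts. The rRNA genes took 13.8%, 12.9% and 14.7% of them in DMSO, 19.1%, 15.9% and 20.2% in HU, with 15.7%, 13.7% and 15.4% in Thy-Noc. Every HU library exceeded every DMSO and Thy-Noc library. The mRNA genes took 85.0% ± 1.01 in DMSO, 80.3% ± 2.31 in HU and 83.9% ± 1.11 in Thy-Noc (SD, n = 3). The tRNA genes took 1.18% ± 0.1004 in DMSO, 1.32% ± 0.0926 in HU and 1.17% ± 0.0374 in Thy-Noc, where HU and DMSO overlapped.
Of all counts in a library, the mitochondrial mRNA genes took 0.881% ± 0.0447 in DMSO, 1.29% ± 0.154 in HU and 1.08% ± 0.202 in Thy-Noc. The rRNA genes took 0.143% ± 0.00675, 0.295% ± 0.0507 and 0.194% ± 0.0507, and the tRNA genes 0.0122% ± 0.000711, 0.0212% ± 0.00325 and 0.0151% ± 0.00348. In each class all HU libraries exceeded all DMSO libraries, and Thy-Noc overlapped with DMSO. These shares sum over the genes described, so they are given with no test.

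**Figure D3:**
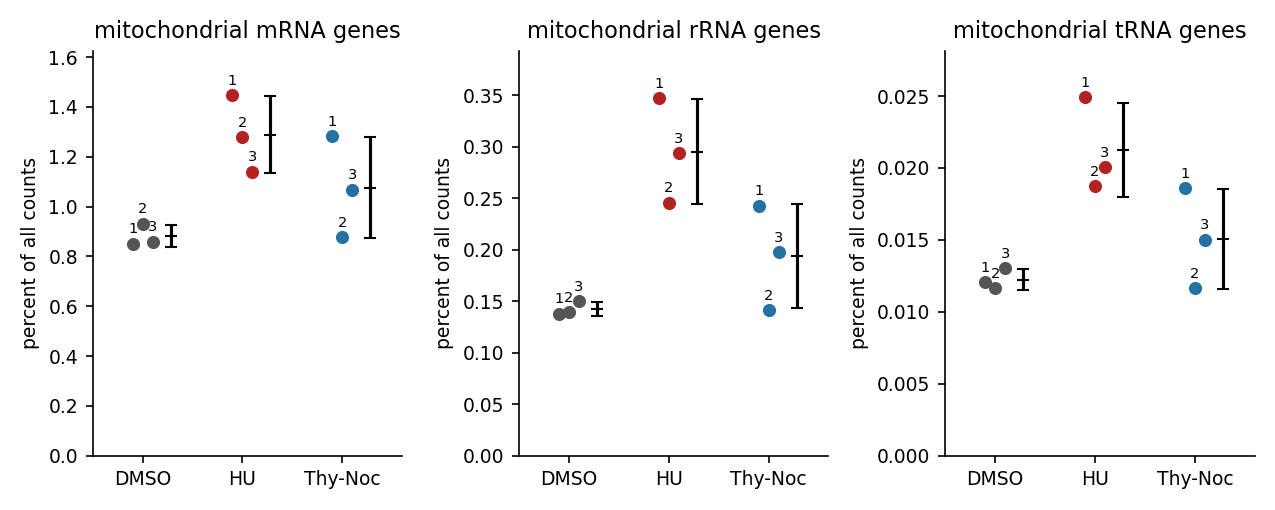
Percent of all counts of a library on mitochondrial mRNA, rRNA and tRNA genes, by group. Points are libraries, numbered by replicate, and the bars to their right are the mean and SD of 3. HU points lie above all DMSO points in each panel, and Thy-Noc replicates 1, 3 and 2 lie in that order from high to low in each.

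Within the tRNA genes the make-up differed by strand and place. The 8 minus-strand genes took 76.6%, 71.3% and 74.9% of tRNA counts in DMSO, 84.9%, 85.2% and 86.2% in HU, with 71.0%, 75.3% and 76.3% in Thy-Noc. All HU shares exceeded all others. Without MT-TA, MT-TN, MT-TC and MT-TY the minus-strand share was 43.4% ± 1.80 in DMSO, 53.8% ± 0.496 in HU and 41.9% ± 4.15 in Thy-Noc (SD, n = 3). That share also depends on the plus-strand tRNA genes. Per 10000 mitochondrial mRNA counts these held 35.7 ± 2.44 in DMSO, 23.9 ± 2.16 in HU and 36.0 ± 5.19 in Thy-Noc. None of the remaining minus-strand genes rose beyond its DMSO libraries on that scale: MT-TQ and MT-TE lay below them, and MT-TS1 and MT-TP overlapped.
Per 10000 mitochondrial mRNA counts, MT-TH, MT-TS2 and MT-TL2 together held 12.5, 11.7 and 13.0 counts in DMSO against 3.99, 4.55 and 4.07 in HU, and then 11.15, 11.91 and 10.55 in Thy-Noc. The HU mean was 0.339 of the DMSO mean. On the same scale MT-TA, MT-TN, MT-TC and MT-TY together held 81.0, 62.0 and 86.5 counts in DMSO against 116.8, 99.4 and 123 in HU, with 78.2, 73.2 and 81.5 in Thy-Noc. The HU mean was 1.48 of the DMSO mean, and DMSO replicate 2 was the lowest library.

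Taken one by one on this scale, the HU libraries lay below all DMSO libraries for MT-TH, MT-TS2, MT-TL2, MT-TG, MT-TR, MT-TI, MT-TW (tryptophan) and MT-TK (lysine) of the plus strand and for MT-TQ (glutamine) and MT-TE of the minus strand. The ratio of HU to DMSO means was 0.333 for MT-TH, 0.345 for MT-TS2, 0.340 for MT-TL2, 0.411 for MT-TG, 0.448 for MT-TI and 0.499 for MT-TR. MT-TW (0.542), MT-TQ (0.505) and MT-TK (0.724) had too few counts to be tested, with 27 to 57, 30 to 92 and 32 to 55 per library. MT-TQ overlaps MT-TI by 3 bases on the opposite strand. HU libraries lay above all DMSO libraries for MT-TA (1.51), MT-TN (1.53), MT-TC (1.58) and MT-TY (1.31). For MT-TF, MT-TV, MT-TL1, MT-TM, MT-TT, MT-TS1, MT-TP and MT-TD (aspartic acid) the libraries overlapped, with ratios of 0.866 to 1.12.

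**Figure D4:**
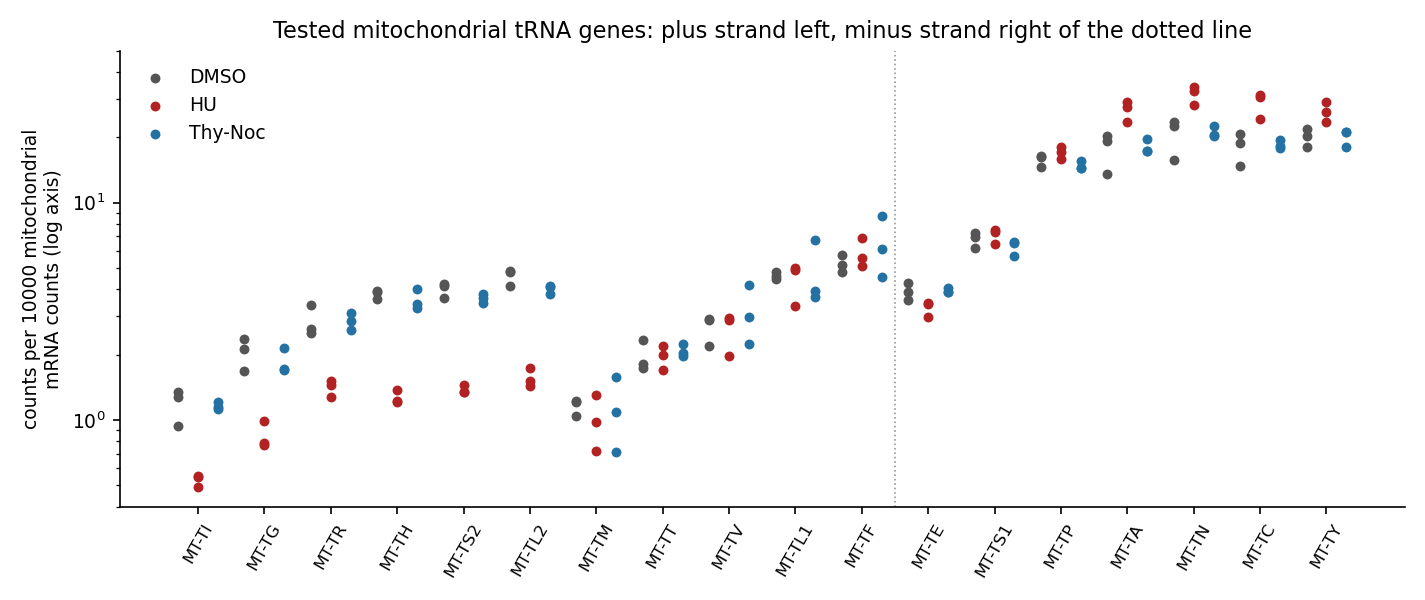
Counts of each tested mitochondrial tRNA gene per 10000 mitochondrial mRNA counts, on a log axis, with 1 point per library. For MT-TI, MT-TG, MT-TR, MT-TH, MT-TS2 and MT-TL2 the 3 HU points lie below all DMSO and Thy-Noc points, and for MT-TA, MT-TN, MT-TC and MT-TY they lie above them.

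Base composition went with strand among these genes. G made up 10.3% to 19.1% of the plus-strand tRNA genes and 23.5% to 36.1% of the minus-strand ones. GC content was 23.1% to 45.8% in the 6 tested genes with negative values in HU (median 32.1%) and 33.8% to 49.3% in the 12 with positive values (median 41.6%). Across the 18 tested tRNA genes Pearson's r between GC content and the HU minus DMSO log2 fold change was 0.53. It was 0.40 over the 11 plus-strand and 0.28 over the 7 minus-strand genes. This is a description across genes that share libraries, strands and in part reads. MT-TS2, at 45.8% GC, fell like its neighbours MT-TH (36.2%) and MT-TL2 (35.2%).

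In Thy-Noc, all 33 tested genes had a higher level than in DMSO, by log2 fold changes of 0.15 (MT-TL2) to 0.70 (MT-TF) with a median of 0.36, against 0.0060 over all genes tested. None passed the test: edgeR's quasi-likelihood test called 0 of 33 and 0 had an unadjusted p under 0.05 (4.49% of all genes did), and DESeq2 and limma also called 0. Of all genes, 0.0353% were called, 0.0264% higher and 0.00881% lower. For 0 of the 33 did the Thy-Noc libraries all exceed or all lie below the DMSO libraries, where 5.18% and 4.79% of all genes did. The edgeR adjusted p was 0.9998 for each. The values rested on the order of the libraries: without Thy-Noc replicate 1 the median was 0.18 and 30 of 33 were positive, with MT-TL1, MT-TM and MT-TL2 negative, and without Thy-Noc replicate 2 the median was 0.52 and 20 had an unadjusted p under 0.05, with 0 called.
By class, the median was 0.34 for mRNAs, 0.53 for rRNAs, 0.34 for plus-strand tRNAs and 0.36 for minus-strand tRNAs. MT-RNR1 had a log2 fold change of 0.57 and MT-RNR2 of 0.48 (adjusted p in edgeR as above). MT-TH, MT-TS2 and MT-TL2 had values of 0.22, 0.20 and 0.15, and MT-TA, MT-TN, MT-TC and MT-TY values of 0.38, 0.38, 0.39 and 0.36.

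Set directly against HU, Thy-Noc had higher levels of the 3 adjoining tRNA genes. This comparison shares its HU libraries with that of HU and DMSO, so its calls are not separate support. MT-TH was 2.57-fold higher in Thy-Noc (log2 fold change 1.36, SE 0.22, edgeR adjusted p = 0.0383), MT-TS2 2.43-fold (1.28, SE 0.22, edgeR adjusted p = 0.0421) and MT-TL2 2.38-fold (1.25, SE 0.23, edgeR adjusted p = 0.0474). Of all genes, 1.75% were called, 1.06% higher and 0.696% lower, against 3 and 0 of the 33. In 0 of 9 fits without 1 library was any of the 33 called, with adjusted p-values for MT-TH of 0.0621 to 0.121 and log2 fold changes of 1.22 to 1.44. DESeq2 called 9 of the 33, with MT-TI, MT-TG and MT-TR also higher and MT-TA, MT-TN and MT-TC lower, and limma called the same 3 as edgeR. Over all 11346 genes, DESeq2 called 926 higher and 900 lower in this comparison, and limma 178 and 148.
MT-TI (1.02), MT-TG (0.99) and MT-TR (0.90) had positive values with no overlap of libraries, and adjusted p-values in edgeR of 0.121, 0.0942 and 0.158. MT-TA (-0.67), MT-TN (-0.69), MT-TC (-0.73) and MT-TY (-0.47) had negative values with no overlap, and adjusted p-values of 0.179, 0.162, 0.160 and 0.323. Without adjustment, 9 of the 33 had a p under 0.05, and 19.4% of all genes did. In all, 6 of 33 lay above and 4 below with no overlap, where 12.0% and 12.9% of all genes did so. No mRNA or rRNA did. The mRNA values lay between -0.20 (MT-ND4) and 0.19 (MT-ND3), with an edgeR adjusted p of at least 0.583. The median over the 33 was -0.05, and it turned to 0.06 without HU replicate 1 and to 0.13 without Thy-Noc replicate 2.

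Nuclear genes that serve the mitochondrial genome were looked up in 5 lists. The calls in each list stand beside those over all 11346 genes. DESeq2 called 1079 of all genes higher and 1056 lower in HU minus DMSO. In Thy-Noc minus HU it called 926 higher and 900 lower, and in Thy-Noc minus DMSO 102 and 77. In limma these counts were 314 and 248, 178 and 148, and 7 and 5. For the transcription machinery, among them the polymerase POLRMT, the packaging and promoter factor TFAM and the promoter factor TFB2M, edgeR called 0 of 15 tested in any comparison, with 4, 2 and 4 at an unadjusted p under 0.05 in HU minus DMSO, Thy-Noc minus DMSO and Thy-Noc minus HU. Over all genes, 21.2%, 4.49% and 19.4% reached such a p in the same order. DESeq2 called 3 lower in HU minus DMSO and 3 higher in Thy-Noc minus HU, and limma 0. The median log2 fold change in HU minus DMSO was -0.14. Of the 15, 4 had libraries of a group at least 10-fold apart, among them TFAM, at 95.3, 0.672 and 1.72 CPM in DMSO. POLRMT stood at 215, 209.5 and 227 CPM in DMSO against 202, 205 and 212 CPM in HU (log2 fold change -0.07, SE 0.10, edgeR adjusted p = 0.767). Among steady members, those with libraries less than 10-fold apart in each group, the largest value was that of ESRRA, a nuclear receptor that drives respiratory genes, at 48.5, 21.0 and 43.2 CPM in DMSO against 124, 123 and 94.9 CPM in HU (1.60, SE 0.63, edgeR adjusted p = 0.202). In Thy-Noc minus DMSO it was that of PPARGC1B, a coactivator of mitochondrial biogenesis (-1.46, edgeR adjusted p = 0.9998). Of the 4 members at an unadjusted p under 0.05 in HU minus DMSO, 1 was higher, ESRRA, and 3 were lower. Those 3, named after they were seen, were NRF1 (-1.08), TFB2M (-0.55) and MRPL12 (-0.41). Their edgeR adjusted p were 0.124, 0.141 and 0.120.

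For RNA processing and decay, edgeR called 0 of 32 in any comparison, with 6, 0 and 4 at an unadjusted p under 0.05 in the same order. Of all genes, 21.2%, 4.49% and 19.4% reached such a p. DESeq2 called 1 higher and 4 lower in HU minus DMSO and 3 higher and 1 lower in Thy-Noc minus HU, and limma 0 and 1. The median log2 fold change in HU minus DMSO was -0.03. ELAC2, the 3′ tRNA nuclease, stood at 399, 397 and 392.3 CPM in DMSO against 348, 325 and 340.5 CPM in HU (-0.23, SE 0.07, edgeR adjusted p = 0.126). TRMT10C, a subunit of mitochondrial RNase P, had a value of -0.24 (SE 0.20, edgeR adjusted p = 0.570). The degradosome subunits PNPT1, the exonuclease, and SUPV3L1, the helicase, had values of -0.13 and 0.15 (edgeR adjusted p = 0.581 and 0.364). POLRMT, TFAM, TFB2M, ELAC2, TRMT10C, PNPT1 and SUPV3L1 were singled out for their roles after values were seen. The largest values among steady members were those of DHX30, an RNA helicase of mitochondrial RNA granules, in HU minus DMSO (1.20, edgeR adjusted p = 0.326) and of SLIRP, which binds mitochondrial mRNAs, in Thy-Noc minus DMSO (1.35, edgeR adjusted p = 0.9998). Of the 6 members at an unadjusted p under 0.05 in HU minus DMSO, 1 was higher and 5 were lower. DHX30 was not among them.

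For replication and maintenance of mitochondrial DNA, edgeR called 2 of 26 lower in HU than in DMSO and 0 higher, beside 1.56% and 2.0% of all genes. DESeq2 called 8 lower and 2 higher, and limma 2 and 1. ATAD3A, a membrane ATPase tied to nucleoids, stood at 459, 495 and 465 CPM in DMSO against 252, 301 and 275 CPM in HU (log2 fold change -0.78, SE 0.10, edgeR adjusted p = 0.0220). RRM2B, a ribonucleotide reductase subunit that supplies deoxynucleotides outside S phase, stood at 130.1, 184 and 158 CPM in DMSO against 94.1, 99.9 and 106 CPM in HU (-0.66, SE 0.13, edgeR adjusted p = 0.0466). For both, all HU libraries were below all DMSO libraries. With 1 library left out, ATAD3A was called in 4 of 9 fits and RRM2B in 0 of 9. The list's median was -0.36. An unadjusted p under 0.05 was reached by 14 of 26, beside 21.2% of all genes, with 10 lower and 4 higher in HU. Lower values without a call, also named after they were seen, included POLG2 (-0.88), LIG3 (-0.69), RNASEH1 (-0.47), TWNK (-1.04) and DGUOK (-0.91). Their edgeR adjusted p were 0.0686, 0.0798, 0.0844, 0.147 and 0.201. POLG was also lower (-2.90, edgeR adjusted p = 0.231), at 21.8, 32.3 and 207 CPM in DMSO against 2.49, 7.13 and 25.3 CPM in HU. Its HU and DMSO libraries overlapped, and DMSO replicate 3 was far above the rest. The 4 with higher values, named after they were seen, were OPA1, the GTPase of inner-membrane fusion (1.97), TOP1MT, the mitochondrial topoisomerase (7.05, with Thy-Noc libraries over 10-fold apart), MGME1, a mitochondrial exonuclease (0.57), and MPV17, an inner-membrane protein (0.49), at edgeR adjusted p of 0.0847, 0.133, 0.123 and 0.234.

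Of 22 nuclear genes read as markers of mitochondrial mass, edgeR called 3 lower in HU than in DMSO and 0 higher, beside the same 1.56% and 2.0% of all genes. DESeq2 called 5 lower and 1 higher, and limma 3 and 0. HSPD1, the matrix chaperonin, stood at 17798, 19966 and 18935 CPM in DMSO against 11996, 10164 and 11394 CPM in HU and 20362, 16718 and 21301 CPM in Thy-Noc (HU minus DMSO log2 fold change -0.76, SE 0.13, edgeR adjusted p = 0.0299). CS, the citrate synthase, had a log2 fold change of -0.71 (SE 0.13, edgeR adjusted p = 0.0379) and TOMM22, a receptor of the outer-membrane import pore, one of -0.46 (SE 0.09, edgeR adjusted p = 0.0483). With 1 library left out, HSPD1 was called in 3 of 9 fits and CS and TOMM22 in 0. In Thy-Noc minus HU, which shares the HU libraries, HSPD1 was called higher (0.80, SE 0.13, edgeR adjusted p = 0.0383). It was the 1 call of edgeR in this list there, with 8 members at an unadjusted p under 0.05, beside 19.4% of all genes. DESeq2 called 7 higher and 0 lower, and limma 3 and 0. In the replication list edgeR called 0 in that comparison, with 6 at such a p. DESeq2 called 4 higher and 0 lower there, and limma 1 and 0. The median of the mass list in HU minus DMSO was -0.21, against 0.43 for the 33 mitochondrial genes. These are RNA levels, and whether mitochondrial mass itself differed was not tested.
In Thy-Noc minus DMSO, edgeR called 0 in both of these lists. An unadjusted p under 0.05 was reached by 2 in each, beside 4.49% of all genes. DESeq2 called 0 and 2, and limma called 0. The largest values among steady members there were those of OPA1 (0.92) and PHB1, a prohibitin of the inner membrane (2.92), both at an edgeR adjusted p of 0.9998.

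For 37 tested assembly factors of the respiratory complexes, edgeR called 0 in any comparison, with 7, 2 and 4 at an unadjusted p under 0.05. Over all genes, 21.2%, 4.49% and 19.4% did so in HU minus DMSO, Thy-Noc minus DMSO and Thy-Noc minus HU. DESeq2 called 1 higher and 4 lower in HU minus DMSO and 3 higher and 1 lower in Thy-Noc minus HU, and limma 0 in each. The largest value among steady members in HU minus DMSO was that of TACO1, a translational activator of MT-CO1, at 38.2, 29.5 and 5.02 CPM in DMSO against 2.40, 2.28 and 9.57 CPM in HU (-2.35, SE 0.90, edgeR adjusted p = 0.193). Its libraries overlapped. In Thy-Noc minus DMSO it was that of UQCC1, an assembly factor of complex III (1.53, edgeR adjusted p = 0.9998).

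Near-identical copies of mitochondrial genes in the nuclear genome could take or give reads. The table listed 13 such pseudogenes, which together came to 3.99% to 4.35% of the mitochondrial total in each library. The 4 with at least 1000 counts in every library were MTATP6P1 (17.5% to 19.5% of the MT-ATP6 count), MTCO1P12 (6.85% to 7.63% of MT-CO1), MTND2P28 (20.1% to 22.1% of MT-ND2) and MTRNR2L12 (2.69% to 3.75% of MT-RNR2). The other 9 (MTATP8P1, MTCO1P40, MTCO2P12, MTCO3P12, MTND1P23, MTND4LP30, MTND4P12, MTND6P4 and MTRNR2L8) held 1 to 331 counts per library. No pseudogene of a tRNA gene was searched for. With the pseudogene counts added, the difference of mean log2 mitochondrial share between HU and DMSO was 0.625, and without them it was 0.627.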

How the data were processed

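RNA was measured in 9 Raji libraries, 3 per treatment. Tools named in the submitters' processing notes, all without a version, are STAR, Trim Galore, FastQC and DESeq2, with GRCh38 as build. Not given in the sources used here are the counter, its annotation and its strand setting. A table of estimated counts was deposited by the authors, whose name says CPM, but its values are whole numbers of at least 1 with unequal totals, so they were read here as estimated counts, already whole. Symbols matched for 15393 of 15436 identifiers.

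Counts were tested in R 4.3.3 with edgeR 4.0.16 on the 11346 genes that reached 1 CPM in 3 or more libraries, with TMM scaling, a quasi-likelihood fit of 3 groups to all 9 libraries (6 residual and 1.25 prior degrees of freedom), 2-sided tests, Benjamini-Hochberg adjustment over all genes and a threshold of 0.05. The fit was tested on simulated counts. At the gene-wise spread of these libraries it missed most of the changes made, so a gene that did not pass may still differ. CPM values use TMM-scaled library sizes, shares use plain counts. Genes and GENCODE 29 coordinates were joined by identifier, and tRNA sequences come from its transcripts. Alternatives were other filters, scalings, robust dispersions, DESeq2 1.42.0, limma 3.58.1, 6-library fits, a replicate block and leaving out each library.

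Members and lists were chosen with earlier results of these data known. Named nuclear genes are called list members or, where none was called, the largest change among members that differ less than 10-fold within each group. The alternative without unsteady genes applied that limit after adding 0.5 CPM. Exact permutation tests had been planned for the shares. Their p-values are not printed, because the shares sum over genes chosen with results known. Precision is limited by 3 libraries per group and, at low tRNA genes, by low counts. No 2 libraries of a group repeated each other (chi-square per degree of freedom of 930.4 or more).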

Additional observations from a re-analysis of the deposited data

How the results depend on the processing

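For HU minus DMSO, edgeR's 3 mitochondrial calls became 0 with no filter on low values, 5 with total-count scaling, 13 in DESeq2, 1 with robust dispersions, 0 in the 6-library fit, 0 with the replicate block and 7 without unsteady genes (chosen after seeing the data), and 0 to 2 with 1 library left out. For Thy-Noc minus HU, 3 became 0 with no filter, 0 at a CPM minimum of 5 (the 3 genes were then not tested), 1 with total-count scaling, 9 in DESeq2, 0 in the 6-library fit, 0 with the block and 0 to 0 with 1 library left out. The cause was not tested. Over all genes, DESeq2 called 1079 higher and 1056 lower in HU minus DMSO, and 926 and 900 in Thy-Noc minus HU. Total-count scaling moved the median of all genes to 0.12 and -0.16 in these comparisons, and the share of calls that were higher, over all genes, from 56.2% to 72.7% and from 60.3% to 29.3%. Thy-Noc minus DMSO stayed at 0 under every alternative.

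Genes called in at least 1 comparison changed as follows. Transcription: 0 to 3 in DESeq2. RNA processing: 0 to 5 in DESeq2 and to 1 at a CPM minimum of 5, in limma with each pseudocount and without unsteady genes. Replication: 2 to 1 with no filter, total-count scaling or 6 libraries, 10 in DESeq2, 0 with the block, 4 without unsteady genes, and 0 to 2 with 1 library left out. Mass: 3 to 0 with no filter, 6 libraries or the block, 1 with total-count scaling, 5 at a CPM minimum of 5, in limma with a pseudocount of 0.1 or without unsteady genes, 8 in DESeq2, and 0 to 1 with 1 library left out. Assembly: 0 to 6 in DESeq2.

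Same-numbered libraries deviated from their group means with correlations of -0.04 to 0.04, and differently numbered ones with -0.044 to 0.027. Between HU and Thy-Noc the same-numbered values were 0.029 to 0.039 and the others -0.031 to -0.0048. Between DMSO and HU the same-numbered values were all negative. Whether the numbers pair the samples is therefore not settled. With the replicate block the difference of mean log2 mitochondrial share between HU and DMSO was 0.627, the same by construction as without it and so no sign of stability. It was 0.533 to 0.695 with 1 library left out, 0.526 with TMM-scaled sizes, 0.630 without unsteady genes and 0.544 for mRNAs alone. Depth limits MT-TD, MT-TK, MT-TQ and MT-TW, at 18 to 92 counts per library.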
